A study of Mus musculus with 10 samples.

Results

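The macrophage genes of cutaneous squamous cell carcinoma (SCC) described here are 37 named mouse genes, chosen by symbol for their known place in macrophages and their monocyte precursors. They were matched to 38 of the 35275 gene entries in the deposited tables, since *Clec7a* has a second entry that is listed at 0 in every tumor. RNA sequencing was carried out on 10 mouse tumors, 5 with the genotype label LDHA-/- (here Ldha-null) and 5 labelled wild type, each with a table of read counts and of FPKM, fragment counts scaled to transcript length and library size. In the study as a whole, tumors arose from hair follicle stem cells through Cre-induced alleles that include loss of p53, under the K15-CrePR or Lgr5-CreER driver, or through DMBA and TPA treatment, on mixed strain backgrounds and in both sexes, so that both genotypes carry the tumor-driving change and differ in the floxed *Ldha* allele. Tumors are called null 1 to null 5 and WT 1 to WT 5, and runs of 5 values keep that order. Animals were treated as young adults, tumors were harvested at times that depended on the model, and which model gave each sequenced tumor was not given in the sources used here. Cre acts in the stem cells and their progeny, so tumor macrophages are host cells outside its target. The labels call the material squamous carcinoma cells, whereas the protocol describes whole fresh tumors homogenized without sorting, and the leukocyte gene *Ptprc* was measured in every tumor at 1.88 to 39.0 FPKM.

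Macrophages are phagocytes that arise from circulating monocytes or from cells seeded in tissues before birth, and the receptor encoded by *Csf1r* carries the survival signal of its ligand *Csf1*. In skin tumors they take up dying cells and lipid, secrete complement C1q, and can be driven toward a classical, nitric oxide producing state or an alternative state with scavenger and mannose receptors. The transcription factor PU.1 (*Spi1*) binds purine-rich sites next to many of their genes.

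Upstream sequences are shown for the complement pair *C1qb* and *C1qc*, which varied together from tumor to tumor, and for the neighbouring lysozyme genes *Lyz1* and *Lyz2*. The lysozyme genes differed most in null 1, the lowest tumor for *Lyz2* but not for *Lyz1*. Outside null 1 both were lowest in WT 5 and next lowest in null 3. Each run is the 250 bases before the gene's start on the minus strand of GRCm38.p6, taken from RefSeq, and capitals mark matches on either strand to GAGGAA or GGAAGT, hexamers that overlap in the PU.1 core site.

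C1qb, chr4:136886201-136886450: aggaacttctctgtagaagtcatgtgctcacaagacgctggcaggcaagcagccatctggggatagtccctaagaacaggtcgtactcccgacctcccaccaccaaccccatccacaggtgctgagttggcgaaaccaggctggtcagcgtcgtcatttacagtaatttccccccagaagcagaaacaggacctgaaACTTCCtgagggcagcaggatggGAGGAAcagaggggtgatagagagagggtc
C1qc, chr4:136892915-136893164: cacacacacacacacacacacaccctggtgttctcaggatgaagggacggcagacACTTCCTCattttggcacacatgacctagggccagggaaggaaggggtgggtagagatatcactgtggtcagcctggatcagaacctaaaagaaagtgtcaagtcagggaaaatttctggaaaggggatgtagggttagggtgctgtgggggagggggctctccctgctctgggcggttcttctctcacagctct
Lyz1, chr10:117292869-117293118: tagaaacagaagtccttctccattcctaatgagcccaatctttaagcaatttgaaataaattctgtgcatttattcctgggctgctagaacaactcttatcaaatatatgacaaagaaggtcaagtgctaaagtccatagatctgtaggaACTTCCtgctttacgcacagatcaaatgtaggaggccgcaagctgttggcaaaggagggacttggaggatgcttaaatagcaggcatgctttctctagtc
Lyz2, chr10:117282273-117282522: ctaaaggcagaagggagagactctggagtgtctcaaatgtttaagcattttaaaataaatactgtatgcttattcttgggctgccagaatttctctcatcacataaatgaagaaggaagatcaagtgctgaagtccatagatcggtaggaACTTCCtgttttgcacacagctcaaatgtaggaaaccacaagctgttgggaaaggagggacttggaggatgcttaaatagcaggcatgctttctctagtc

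The *C1qb* and *C1qc* runs hold both hexamers, on opposite strands for *C1qb* and overlapping in *C1qc*, while the *Lyz1* and *Lyz2* runs each hold only GGAAGT at the same place. Over their upstream runs *Lyz1* and *Lyz2* were 80.6% identical across 248 aligned bases, and their transcripts were 96.0% identical across 1262 aligned bases, so reads of the pair can be hard to assign and both counts are uncertain. RefSeq entries were found for 28 of the 37 genes, 35 upstream runs in all. GAGGAA occurred in 16 of the 35 (45.7%) and in 23.3% of all 32851 upstream runs of the same length, and GGAAGT in 11 (31.4%) and in 19.7%. These matches describe the letters only. There was no entry for *Emr1*, *Csf1r*, *Csf2rb*, *Cd14*, *C1qa*, *Arg1*, *Msr1*, *Tyrobp* and *Nos2*.

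Total counts were between 12969508 and 17694201 per tumor. *Ldha* itself, the deleted gene, did not follow the labels, with 246 to 1882 FPKM in the tumors labelled Ldha-null and 340 to 2824 FPKM in those labelled wild type, so the genotypes below are the labelled ones. The gene-level count does not show which exons the reads cover, so it does not check the deletion. Tumor null 1 held skeletal muscle RNA, with *Ckm*, muscle creatine kinase, at 5646 FPKM against 1.13 to 4.19 FPKM in the other tumors. The basal keratin gene *Krt14* was at 28399 FPKM in null 3 and at 28691 in WT 5, against 138 to 4195 FPKM in the rest. These same 3 tumors were the lowest in vimentin (*Vim*), a mesenchymal filament gene, at 198, 869 and 1485 FPKM, against at least 4101 FPKM elsewhere. The part of this tissue content in the macrophage values was not tested.

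The level of the macrophage genes varied widely from tumor to tumor, and the labelled genotypes overlapped. The geometric mean FPKM of the 6 pan-macrophage genes was 1.63, 67.1, 13.7, 35.2 and 38.0 across the null tumors and 28.8, 53.7, 39.9, 30.0 and 8.80 across the WT tumors. Tumor null 2 thus stood 41.3-fold above null 1, and every wild-type value lay inside the Ldha-null range. The 37 genes took 0.125% of all counts in null 1 and 2.77% in null 2. Among the 36 genes with enough counts to test, null 1 was the lowest for 31 and null 2 the highest for 19. In bulk tissue, fewer macrophages and less of a transcript per macrophage cannot be told apart.

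**Figure D1:**
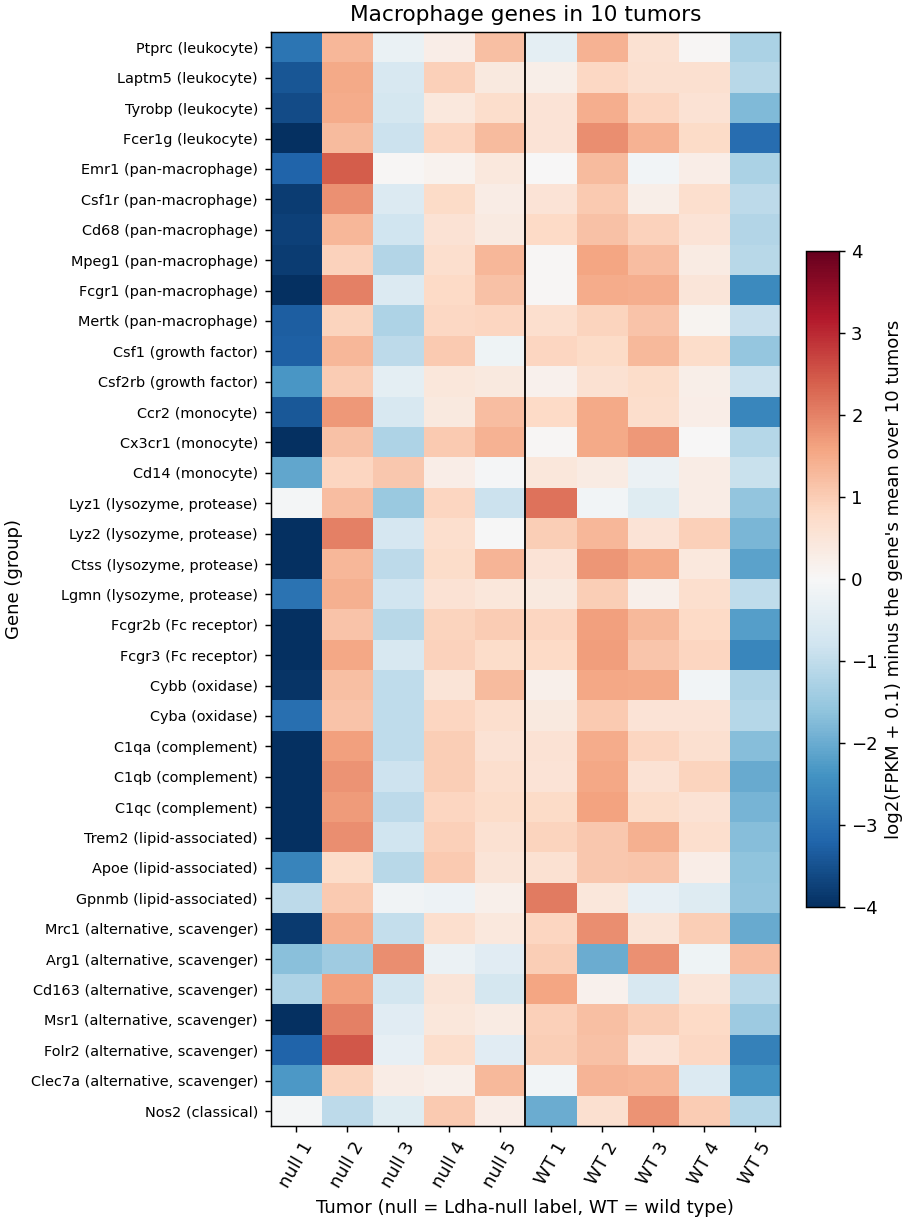
Level of each of the 36 tested macrophage genes (vertical axis, with its group) in each of the 10 tumors (horizontal axis), as log2(FPKM + 0.1) minus the gene's own mean over the tumors, by color. Most genes were low in null 1 (lowest for 31 of 36) and low in WT 5 and null 3. Among the exceptions, *Arg1* was highest in null 3, and *Lyz1* was lowest in WT 5 rather than in null 1.

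Of the 36 tested genes none was called between genotypes by edgeR's quasi-likelihood test with Benjamini-Hochberg adjustment over all genes, where 0% of the 15176 genes tested were called. None had an unadjusted p under 0.05, against 601 of all genes (3.96%), and none had genotypes that did not overlap, against 28 of all genes (0.185%). DESeq2 also called none of the 36. The log2 fold changes (Ldha-null minus wild type) had a median of -0.17, beside 0.02 over all genes, with 9 above 0 and 27 below it. They ran from -0.55 for *Mrc1* to 0.60 for *Emr1*. This lean below 0 rested on single libraries. Without null 1 the median was 0.11 with 21 genes above 0, and without null 3 it was 0.008 with 19 above 0. Without null 2 the lean grew, to a median of -0.57 with 1 gene above 0.

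Differences of several fold in either direction lay within the intervals. The 95% interval of the log2 fold change had a median width of 3.16 and covered more than a 4-fold range in fold change for 34 of the 36 genes, and only that of *Csf2rb* (-0.97 to 0.85) stayed within a 2-fold change either way. In the exact permutation test over tumors (two-sided, smallest possible p = 0.00794), p lay between 0.421 and 0.992 for the single genes.

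**Figure D2:**
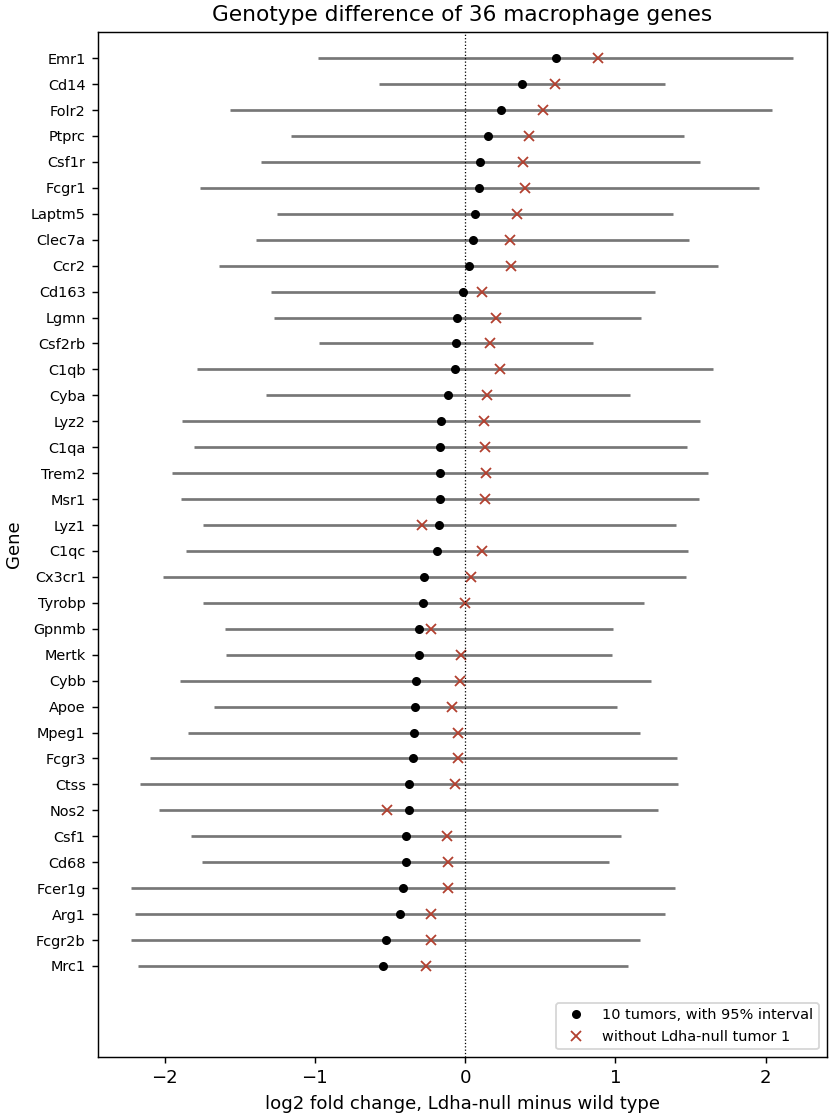
Log2 fold change between genotypes (horizontal axis, Ldha-null minus wild type) for the 36 tested macrophage genes (vertical axis), with points for the fit on 10 tumors, lines for the 95% interval, and crosses for the fit without null 1. Every interval spans 0, and without that tumor 21 of the 36 values lay above 0.

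The genes that mark leukocytes and their activating receptors followed the common pattern. *Ptprc* encodes the leukocyte phosphatase CD45, *Laptm5* a lysosomal membrane protein of blood cells, and *Tyrobp* and *Fcer1g* the signalling adaptors DAP12 and the Fc receptor gamma chain. *Tyrobp* was at 20.7, 695, 153, 331 and 406 FPKM across the null tumors and at 366, 682, 455, 375 and 72.7 FPKM across the WT tumors. The lowest tumors were null 1 and WT 5, and the genotypes overlapped (321 ± 115 against 390 ± 97.8 FPKM, mean ± SEM, n = 5 each). *Fcer1g* was the most variable of these, from 19.5 FPKM in null 1 to 1155 FPKM in WT 2.

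Among the pan-macrophage genes, *Csf1r* (the CSF1 receptor) was at 3.75, 191, 36.1, 91.0 and 65.3 FPKM across the null tumors and 77.5, 110, 62.3, 84.2 and 25.4 FPKM across the WT tumors. Its values overlapped, with a log2 fold change of 0.10 ± 0.66 (SE). *Emr1*, which encodes the surface marker F4/80, was at 0.866, 47.6, 9.05, 9.76 and 11.9 FPKM and at 8.82, 21.5, 8.13, 10.6 and 3.60 FPKM in the same order. Only null 2 and WT 2 stood above the others, and the other Ldha-null values lay at or below 11.9 FPKM, and the largest fitted log2 fold change among the genes (0.60 ± 0.72, SE) was -0.36 without null 2. The lysosomal *Cd68*, the pore-forming *Mpeg1*, the high-affinity Fc receptor *Fcgr1* and the apoptotic cell receptor *Mertk* had log2 fold changes of -0.40, -0.34, 0.09 and -0.31. The annotated intervals of *Csf1r* and *Mertk* overlap another gene on the opposite strand, and strand-specific counting was not stated.

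Growth factor and monocyte genes behaved alike except for *Cd14*. *Csf1* was at 7.78, 191, 36.3, 155 and 67.8 FPKM across the null tumors and at 138, 128, 187, 126 and 26.0 FPKM across the WT tumors. It was thus lowest where its receptor *Csf1r* was lowest in each genotype, null 1 and WT 5. This was common in the whole set, since null 1 was the lowest tumor for 31 of the 36 tested genes and WT 5 the lowest wild-type tumor for most of them. *Ccr2*, the chemokine receptor of inflammatory monocytes, ran from 0.748 to 29.7 FPKM, and *Cx3cr1*, the fractalkine receptor, from 0.785 to 67.5 FPKM, although the listed interval of *Cx3cr1* spans 5 other genes. *Csf2rb*, the shared signalling chain of GM-CSF, had the narrowest interval between genotypes (log2 fold change -0.06 ± 0.41, SE).

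*Cd14*, the lipopolysaccharide co-receptor, was at 12.5, 97.2, 114, 64.5 and 52.6 FPKM across the null tumors and at 73.5, 67.2, 45.3, 66.8 and 29.0 FPKM across the WT tumors. Its highest value lay in null 3, which had the second lowest pan-macrophage level of its genotype. Of the 5 tested genes of the neutrophil list, null 3 was also the highest for 3, among them *S100a8*, which keratinocytes can also express, at 2971 FPKM against 119 to 1379 FPKM elsewhere. It was not the highest for the receptor genes *Csf3r* (11.5 FPKM, up to 35.9 elsewhere) and *Cxcr2* (3.68 FPKM, up to 6.33 elsewhere), and the other 5 listed genes, *Ly6g*, *Mpo*, *Elane*, *Camp* and *Ngp*, lay between 0 and 1.53 FPKM in every tumor. *Csf3r* and these 5 are named after their values were seen. The part of such cells in *Cd14* was not tested.

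The lysosomal enzymes had wide ranges, and the lysozymes differed in pattern, most of all in null 1. *Lyz2*, the macrophage lysozyme, was at 66.8, 4349, 680, 1736 and 1079 FPKM across the null tumors and at 2155, 2733, 1578, 2106 and 306 FPKM across the WT tumors. Its neighbour *Lyz1*, best known from the Paneth cells of the gut, was far lower and highest in WT 1 (19.6 FPKM), where the rest had 1.37 to 10.2 FPKM. The protease *Ctss* ran from 13.1 to 990 FPKM and the asparagine endopeptidase *Lgmn* from 32.3 to 678 FPKM. All 4 had log2 fold changes below 0, from -0.37 for *Ctss* to -0.05 for *Lgmn*, and none passed the test. The annotated interval of *Ctss* overlaps *Hmgb1-ps5* on the same strand, so reads that fall in both would be dropped by the counting.

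Low-affinity Fc receptors and the phagocyte oxidase also showed no difference that passed the test. The inhibitory *Fcgr2b* was at 6.27 to 281 FPKM in the Ldha-null and 27.7 to 402 FPKM in the wild-type tumors, with a log2 fold change of -0.53 ± 0.77 (SE). The activating *Fcgr3* was at 5.85 to 356 and 20.1 to 391 FPKM. The oxidase subunits *Cybb* and *Cyba* (gp91phox and p22phox) had log2 fold changes of -0.33 and -0.12. The annotated interval of *Cyba* overlaps another gene on the opposite strand.

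The complement genes varied together. *C1qa*, *C1qb* and *C1qc* encode the chains of C1q and lie together on chromosome 4, *C1qb* at 136880129 to 136886187, *C1qc* at 136889804 to 136893065 and *C1qa* at 136895917 to 136898803 (mm10, minus strand). The RefSeq start of *C1qc* used for its upstream run lies inside that listed interval. *C1qa* was at 36.5, 1962, 313, 1252 and 939 FPKM across the null tumors and at 944, 1744, 1142, 988 and 195 FPKM across the WT tumors. *C1qc* had 35.1, 1895, 285, 1057 and 973 FPKM, and 988, 1783, 980, 883 and 162 FPKM, in the same order. Null 2 and WT 2 were the highest and null 1, WT 5 and null 3 the lowest, as they were for the pan-macrophage genes. Log2 fold changes were -0.16 for *C1qa*, -0.07 for *C1qb* and -0.19 for *C1qc*, each with a standard error above 0.7.

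Among the lipid-associated genes, *Apoe*, the apolipoprotein that macrophages secrete, was the most abundant gene of all 37 at 878 to 11893 FPKM. It alone took 0.0759% of all counts in null 1 and 1.03% in WT 3. *Trem2*, a lipid-sensing receptor that signals through DAP12, was at 0.771, 104, 16.2, 55.6 and 43.2 FPKM across the null tumors and at 52.7, 60.7, 77.1, 45.7 and 8.66 FPKM across the WT tumors. *Trem2* therefore had the widest range of all the tested genes, 135-fold from lowest to highest, with *Msr1* close to it at 133-fold. This range rested on null 1, where *Trem2* had 25 reads, and outside null 1 it ran from 8.66 to 104 FPKM.

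*Gpnmb*, a glycoprotein of lipid-laden macrophages that pigment cells also make, was at 3.60, 15.8, 6.86, 6.63 and 8.73 FPKM across the null tumors and at 32.5, 10.5, 5.97, 5.25 and 2.46 FPKM across the WT tumors. WT 1 stood apart as the highest. The melanocyte gene *Dct* was at 13.9 FPKM in null 3, with 0.266 to 1.65 FPKM elsewhere, 0.566 FPKM of it in WT 1. The part of pigment cells in *Gpnmb* was not tested.

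**Figure D3:**
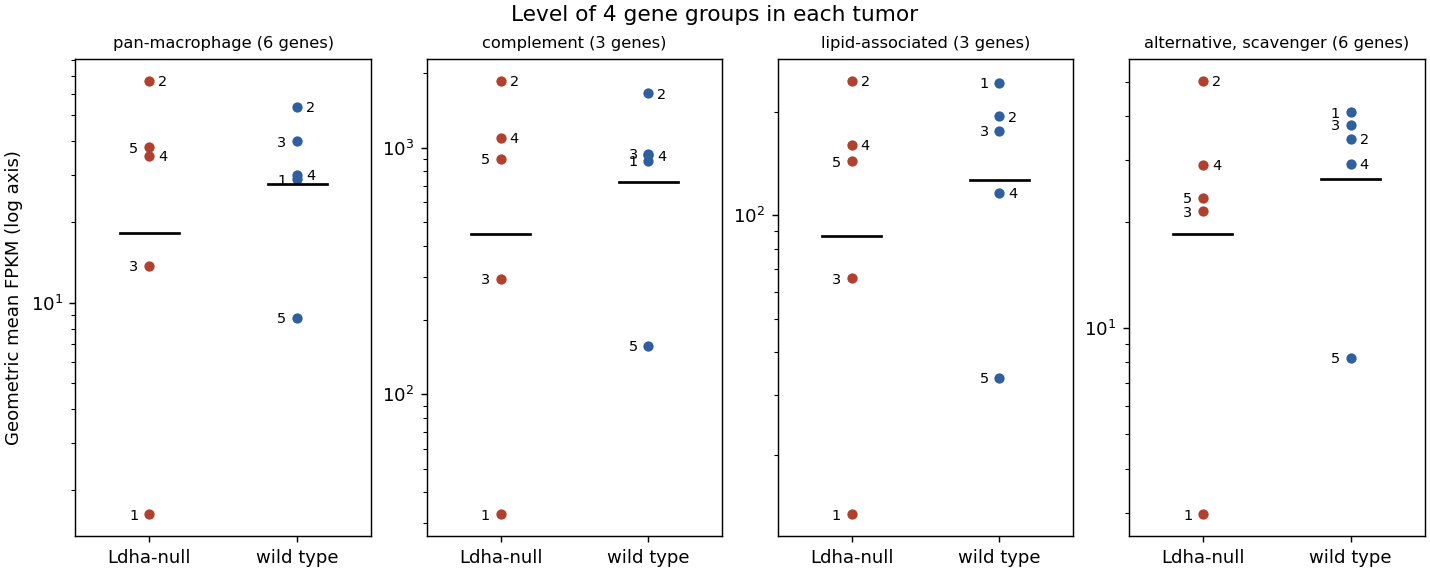
Geometric mean FPKM (vertical log axis) of the tested pan-macrophage, complement, lipid-associated, and alternative and scavenger genes in each tumor, by labelled genotype (horizontal axis). Points carry the tumor number and lines mark the mean of the 5 tumors on the log scale, and in every panel null 1 is the lowest point and null 2 the highest.

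Alternative activation and scavenger genes differed in how closely they followed the macrophage level. *Mrc1*, the mannose receptor, was at 4.91, 194, 36.1, 112 and 94.9 FPKM across the null tumors and at 129, 257, 102, 141 and 17.4 FPKM across the WT tumors. Its means were 88.5 ± 32.8 and 129 ± 38.5 FPKM (mean ± SEM, n = 5 each), the genotypes overlapped, and the log2 fold change was -0.55 ± 0.74 (SE). The scavenger receptor *Msr1* (0.540 to 71.8 FPKM), the folate receptor *Folr2* (4.05 to 214 FPKM) and the beta-glucan receptor *Clec7a* (1.52 to 21.96 FPKM) likewise had their lowest values in null 1 or WT 5. The second *Clec7a* entry lies inside the interval of the one used here, on the same strand. Reads that fall in both would be dropped by the counting, so the *Clec7a* values can be too low.

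*Arg1*, the arginase that consumes the substrate of nitric oxide synthase, was at 14.2, 16.8, 167, 38.7 and 33.5 FPKM across the null tumors and at 90.4, 11.4, 162, 40.6 and 108 FPKM across the WT tumors. The 3 lowest values lay in WT 2, null 1 and null 2, which include both tumors with the highest pan-macrophage level and the tumor with the lowest, and the 3 highest lay in null 3, WT 3 and WT 5. Null 3 and WT 5 had the highest *Krt14*, whereas WT 3, with 162 FPKM of *Arg1*, had *Krt14* at 663 FPKM, and the part of tumor cells in *Arg1* was not tested. *Cd163*, the haemoglobin scavenger receptor, reached 20.7 FPKM in null 2 and 19.7 FPKM in WT 1 and was at 2.70 to 9.34 FPKM in the rest. Its lowest values also lay in null 1 (2.70 FPKM) and WT 5 (3.03 FPKM).

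*Nos2* was low, and *Marco* was near the limit of detection. *Nos2*, the inducible nitric oxide synthase of classical activation, was at 0.754, 0.332, 0.539, 1.77 and 0.969 FPKM across the null tumors and at 0.125, 1.28, 2.998, 1.70 and 0.302 FPKM across the WT tumors. It had 9 to 163 reads per tumor, its highest value lay in WT 3, and the genotypes overlapped. *Marco*, a scavenger receptor of lung and spleen macrophages, had 3, 4, 0, 12 and 3 reads across the null tumors and 4, 2, 0, 7 and 0 reads across the WT tumors, too few to be tested.

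With the pan-macrophage level taken off, most of the spread between tumors was gone. The relative level is the log2 CPM (counts scaled to library size) of a gene minus the mean log2 CPM of the pan-macrophage genes, leaving the gene itself out. Outside those 6 reference genes, the median SD over the 10 tumors was 1.42 for log2 CPM and 0.52 for the relative level, and 24 of 30 genes had the smaller SD in the relative level. Among 15140 other genes the median SD was 0.64 for log2 CPM and 1.42 for the relative level, and 10.8% had the smaller SD in the relative level. The reference itself ran from 3.02 in null 1 to 7.44 in null 2, so taking it off raises the SD of a gene whose own SD is small. The other genes were not matched for SD, so their share is no like-for-like comparison. *Tyrobp* went from 1.32 to 0.21, *C1qa* from 1.499 to 0.27 and *Laptm5* from 1.16 to 0.28. These are descriptions of 10 tumors whose genes share the libraries, and carry no test.

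**Figure D4:**
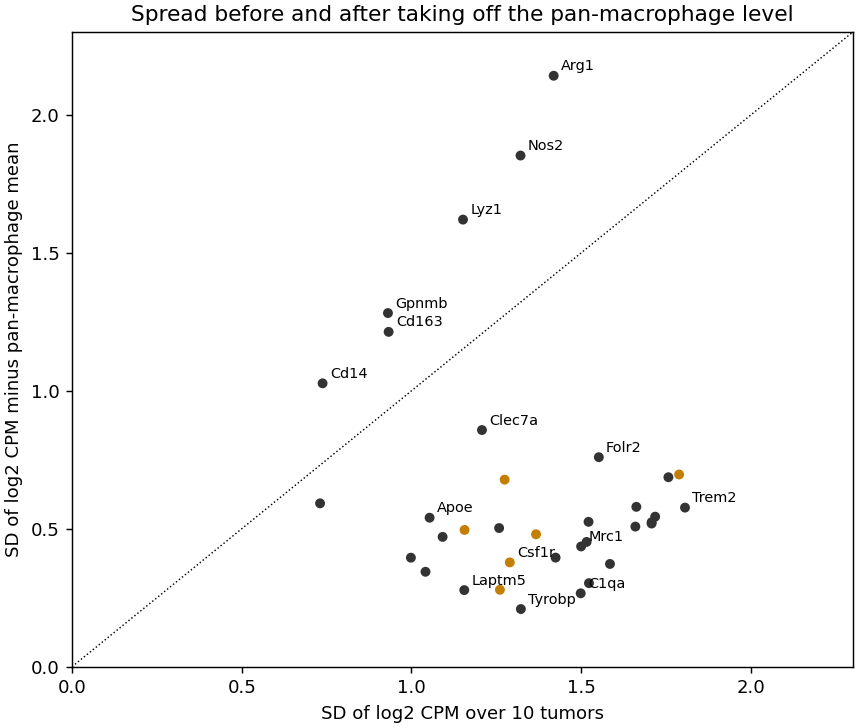
SD over 10 tumors of log2 CPM (horizontal axis) and of log2 CPM minus the pan-macrophage mean (vertical axis) for the 36 tested genes, with the pan-macrophage genes in orange and equality as the dotted line. In all, 30 of the 36 points lie under the line, and *Arg1*, *Nos2*, *Lyz1*, *Gpnmb*, *Cd163* and *Cd14* lie above it.

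The 6 genes above equality were *Arg1* (SD of log2 CPM 1.42, of the relative level 2.14), *Nos2* (1.32 and 1.85), *Lyz1* (1.15 and 1.62), *Gpnmb* (0.93 and 1.28), *Cd163* (0.93 and 1.21) and *Cd14* (0.74 and 1.03). Without null 1, 33 of the 36 genes had the smaller SD in the relative level, beside 15.3% of other genes, and without null 1, null 3 and WT 5 it was 26 of 36 beside 18.6%. The limit given above for the share of other genes holds here too. With only null 1 left out, *Lyz1*, *Gpnmb* and *Cd163* were no longer above equality, so their place there rested on that library. *Arg1* per unit of macrophage level spanned 57.4-fold, from -3.17 in WT 2 to 2.67 in WT 5 on the log2 scale, and both genotypes covered nearly that range. For *Trem2* the relative level was lowest in null 1 (-1.64) and lay between -0.62 and 0.35 elsewhere. For *Mrc1* it was 1.58 ± 0.14 in the Ldha-null and 1.88 ± 0.59 in the wild-type tumors (mean ± SD, n = 5 each), less apart than the wild-type tumors were from each other.

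**Figure D5:**
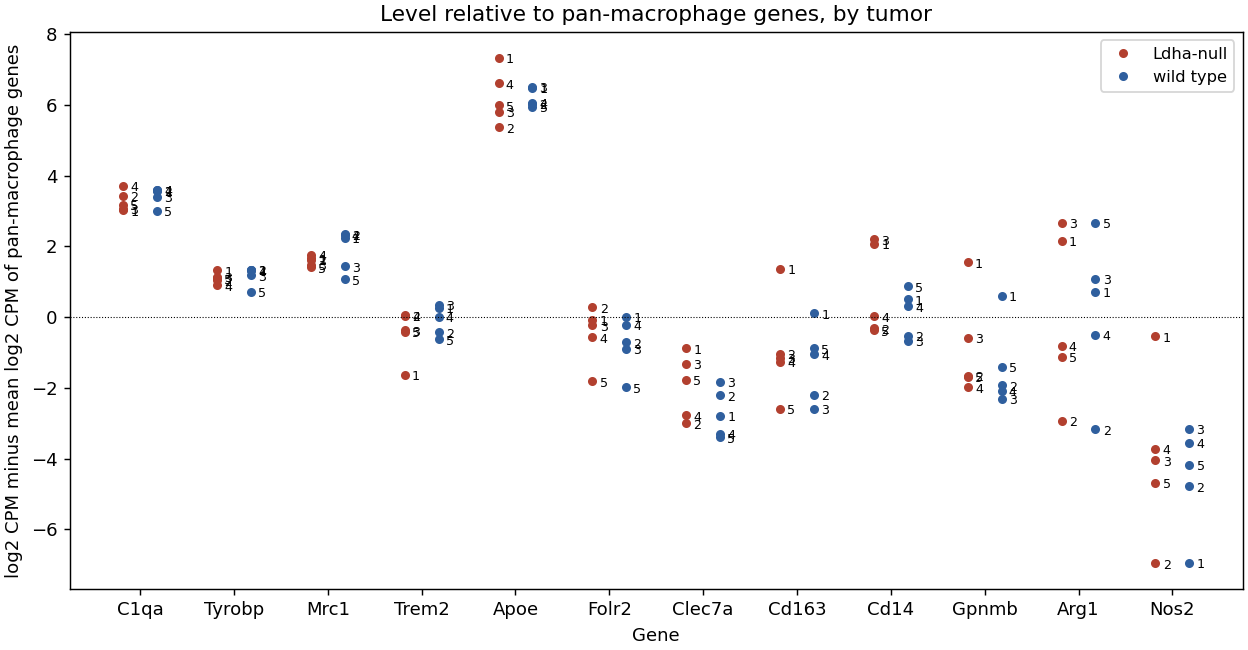
Log2 CPM of 12 genes minus the mean log2 CPM of the pan-macrophage genes (vertical axis) in each tumor, with the gene on the horizontal axis, the genotype by color and the tumor number beside each point. *C1qa* and *Tyrobp* stay within 0.69 and 0.62 log2 units over the 10 tumors, whereas *Arg1* spans 5.84 and *Nos2* 6.42.

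Within the relative levels, null 5, WT 2 and WT 3 shared a profile that was picked out after the values were seen. They were the 3 highest tumors for *Fcer1g*, *Mpeg1*, *Ctss* and *Cybb*, and the 3 lowest for *Csf1r*, *Laptm5*, *Cd14*, *Lyz1*, *Lgmn* and *Cd163*. With the C1q genes as the reference in place of the pan-macrophage genes, this held for *Fcer1g* and *Ctss* at the high end and for *Csf1r*, *Lyz1* and *Cd163* at the low end. The lymphocyte gene *Nkg7*, of cytotoxic granules, was also highest in these tumors, at 27.6, 35.1 and 18.6 FPKM against 0.151 to 11.9 FPKM elsewhere. Of the other tested lymphocyte genes, *Cd3g*, *Cd8a* and *Trac* were highest in the same tumors, whereas *Cd3e*, *Cd4*, *Ncr1* and *Cd79a* were not. *Cd3g*, *Cd8a*, *Cd4* and *Ncr1* are named after their values were seen. The part of lymphocytes in the profile was not tested. Null 1, null 3 and WT 5 formed another such set, but these 3 tumors had the lowest level of both references. Taking off a reference that is lowest there ranks any gene that falls less than it high in them. Their ranks thus follow in part from the subtraction and do not show a shared profile. Against the C1q genes these tumors were the 3 highest for 7 genes (*Ptprc*, *Laptm5*, *Csf1r*, *Csf2rb*, *Cd14*, *Lgmn* and *Arg1*). Against the pan-macrophage genes they were the 3 highest for *Csf2rb*, *Cd14* and *Arg1* and the 3 lowest for *Ctss*, *C1qa* and *C1qc*.

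The other genes of the macrophage pathways, listed by function, showed no called difference either. None of the 12 myeloid transcription regulators, 9 tested CSF and monocyte chemokine genes, 18 lipid and lysosome genes, 17 alternative activation genes, 10 classical activation genes, 15 Fc receptor and DAP12 partners or 10 complement genes passed the adjusted threshold. *Il1b*, the interleukin-1 beta gene, was at 23.9, 67.0, 215, 19.8 and 27.1 FPKM across the null tumors and at 18.6, 12.4, 19.8, 23.2 and 26.4 FPKM across the WT tumors. Null 2, null 3 and, by under 1 FPKM, null 5 stood above the wild-type range, the edgeR log2 fold change was 2.01 ± 0.68 (SE), and its adjusted p was 0.999. *Irg1*, the itaconate-making enzyme gene, had a log2 fold change of 1.70 ± 0.76 (SE) with the same adjusted edgeR p of 0.999. The lipid genes *Cd36* (46.4 FPKM) and *Lpl* (243 FPKM) were highest in null 1, the tumor with muscle RNA, and both are also made in muscle and fat.

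Markers of other cell types differed between tumors as well. The summed FPKM of the neutrophil list was 421 to 4930 in the Ldha-null and 204 to 2341 in the wild-type tumors. Of the 4930 in null 3, *S100a8* gave 2971 and *S100a9* 1915 FPKM, while the receptor genes *Csf3r* and *Cxcr2* were not highest there. Keratinocytes can also express *S100a8*, so the sum is no measure of neutrophil number. The lymphocyte list gave 4.001 to 95.7 and 4.60 to 108 in the same order of genotypes. The osteoclast list, whose cells share the myeloid origin, was at 23.1 to 401 and 82.7 to 212, and the dendritic cell list at 4.22 to 19.3 and 7.73 to 22.6. No gene of the neutrophil, dendritic, mast cell, lymphocyte, osteoclast, melanocyte, fibroblast, endothelial, keratinocyte or skeletal muscle lists was called between genotypes, and their part in the macrophage values was not tested.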

How the data were processed

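RNA was isolated from fresh tumors, poly(A)-selected and sequenced, and per the labels and the study's methods the authors filtered reads with CASAVA 1.8, mapped them to mm10 with TopHat2 and counted them per gene with HTSeq in union mode, which drops reads that overlap several genes. The deposited tables hold raw counts and the authors' FPKM values. The FPKM could be recovered within 1% from count, total and listed length for 16 of the 37 genes in the tumors checked, so its length term was not the listed one for the others.

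Counts were analysed with edgeR 4.0.16 (TMM factors, filterByExpr set to at least 10 reads and 15 in total, quasi-likelihood F-test, Benjamini-Hochberg adjustment, threshold 0.05), with limma 3.58.1 and DESeq2 1.42.0 as alternatives, in R 4.3.3. Log2 CPM used a prior count of 2, and the heat map a pseudocount of 0.1 on FPKM. Exact permutation tests covered all 252 assignments of 5 tumors (SciPy 1.17.1), and sequences were aligned with Biopython 1.88. The fit was tested on simulated data. The 37 genes, the other lists and the tests were chosen with earlier results of these data known. All 37 genes are named, as are *Ldha*, tissue markers set for context and, from each other list, up to 4 genes with the smallest unadjusted p. No batch is given in the labels. Nothing states that tumors came from separate animals, so p-values measure only the spread between these tumors. No 2 libraries of the same genotype agreed within counting noise. A further allele of the tumor model is not reported here.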

Additional observations from a re-analysis of the deposited data

Results flagged for a closer look

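Each macrophage gene was checked in each genotype for an end value set apart from the rest, with a distance to the next tumor above 0.71 of the whole log2 CPM range of the 5. Of 72 such groups 10 passed, where chance alone passes about 1 in 20 (3.6). In all 10 the tumor was WT 5, as the lowest of its genotype. The share was 0.719 for *Fcer1g*, 0.755 for *Cd68*, 0.781 for *Csf1*, 0.741 for *Lyz2* and 0.777 for *Fcgr2b*. It was 0.778 for *Fcgr3*, 0.717 for *C1qc*, 0.768 for *Trem2*, 0.867 for *Msr1* and 0.841 for *Folr2*. These genes share the library and vary together, so the 10 are not separate observations. WT 5 was also the wild-type tumor with the highest *Krt14* (28691 FPKM) and the lowest *Vim* (1485 FPKM), and the part of that tissue content was not tested.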

How the results depend on the processing

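No alternative called any of the macrophage genes between genotypes. Over all genes, DESeq2 called 1, *G0s2*, named here after its value was seen, where edgeR called 0 (at an unadjusted p under 0.05, 489 and 601). The median log2 fold change of the macrophage genes was -0.18 with RLE factors, -0.22 with upper-quartile factors, -0.05 with limma-voom sample weights and -0.09 with the pan-macrophage level as a covariate (30 genes). Leaving out each tumor in turn gave medians from -0.57 to 0.11, above 0 without null 1 (0.11) or null 3 (0.008), and it was 0.11 without null 1, null 3 and WT 5 together. Without null 3, 1 macrophage gene had an unadjusted p under 0.05. With the tumor number as a replicate block the median was -0.45 and 0 genes were called. The deviations of same-numbered tumors had correlations of -0.04, 0.06, -0.27, 0.55 and -0.51. The highest of all pairs was 0.66, for null 3 and WT 5. Tissue content also differed between tumors, so these values cannot tell whether the numbers pair them. The 2 fits of relative spread on fewer tumors were added after the data were seen. With 5 tumors a group and a biological coefficient of variation of 63.4%, a difference within the reported intervals cannot be told from 0.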
